A study of Caenorhabditis elegans with 4 samples.

Results

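The chromosome V peaks of the transcription factor HLH-30 in late embryos of the nematode Caenorhabditis elegans are described here. They were taken from the combined peak list of an experiment that sequenced DNA recovered by chromatin immunoprecipitation (ChIP-seq), as every entry whose sequence name is V. This gave 385 of the 2236 listed peaks. The same rule gave 109 of 649 peaks in the list of ChIP replicate 1 and 207 of 1338 in that of replicate 2. All samples came from hermaphrodites of strain OP433, grown at 20 °C and outcrossed 3 times. The strain carries the mutation unc-119(ed3) on chromosome III and the transgene wgIs433. That transgene, introduced by bombardment, holds hlh-30 joined to TY1, EGFP and FLAG tags, together with unc-119(+), the usual marker of transformed animals. The genotype names no change of the endogenous hlh-30 gene, so the tagged protein is an added copy. The 4 samples are 2 ChIP samples, precipitated with antibodies to GFP, and 2 samples of input DNA from the same strain. No sample without the transgene is among them. Chromatin came from whole embryos, so sites bound in few cells and sites bound weakly in many cannot be told apart. Whether replicates came from separate cultures is not given in the labels. Their spread may be technical, and no test over samples was made with 2 of them.

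HLH-30, the worm counterpart of mammalian TFEB, belongs to the basic helix-loop-helix leucine zipper proteins. Proteins of this family bind DNA as dimers at short palindromes called E-boxes. TFEB is known for switching on genes of autophagy and of the lysosome, and HLH-30 for roles in the response to starvation, in fat use, in host defence and in lifespan. Chromosome V is an autosome rich in families of chemoreceptor genes, many of which lie on its arms. The centres of worm autosomes hold more of the conserved and broadly expressed genes, while the arms hold more repeats, recombine more often and carry more repressive chromatin marks. All positions are 1-based coordinates of WormBase build WS180. No sequence or gene annotation of that build was used here, so peaks are named by position alone, with no gene and no motif.

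Peaks on chromosome V were narrow and lay between positions 8531 and 20841251, the first start and last end in any list. The length of the chromosome is taken as 20.8 Mb, the end of the last peak. The combined peaks numbered 18.5 per Mb and covered 0.734% of this length. Their median width was 333 bp (quartiles 265 and 440). The medians were 320 bp in replicate 1 and 381 bp in replicate 2. The widest combined peak spanned 2159 bp. Only 2 were narrower than 100 bp, of 99 bp and 3 bp, and neither replicate held them. The 3 bp entry, at V 7863986 to 7863988, has 16 ChIP tags over 1 control tag and an interval of 2.49 to 671, so its ratio of 16 says little.

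The strength of a peak is given as enrichment. This is the ratio of ChIP tags to control tags, read from the value that the authors deposited for each peak, with an exact 95% interval for counting error. PeakSeq in its published form scales control reads to the ChIP library, so the control tags here may be scaled numbers and not raw counts. The interval treats them as counts and leaves out any error of that scaling. Enrichment of the combined peaks had a median of 3.77-fold (quartiles 3.06 and 5.0) from a median of 58 ChIP tags over 17 control tags. It ran from 2.11-fold to 21-fold. Replicate 1 had a median of 4.94-fold, and replicate 2 one of 5.19-fold. Total reads of each library are unknown.

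Of the 385 combined peaks, 94 overlapped a peak of both replicates by at least 1 bp, or 24.4% (95% Clopper-Pearson interval 20.2 to 29.0). Over all chromosomes this share was 26.8%. Replicate 2 alone held 105, or 27.3% (22.9 to 32.02), against 30.7% over all chromosomes. Replicate 1 alone held 12, or 3.12% (1.62 to 5.38), against 1.74%. Neither held 174, or 45.2% (40.1 to 50.3), against 40.7%. The largest class on chromosome V was therefore that of sites listed when the data were combined and in neither replicate by itself. The share held by both differed by -2.92 percentage points from that of the other chromosomes, 27.3%, and did not pass the test (Fisher's exact test, two-sided, p = 0.255, adjusted p = 0.255 over 4 tests). Among the better-scoring 50% of each list this difference turned to 5.24 points and did not pass either (Fisher's exact adjusted p = 0.183, range over the alternatives 0.0760 to 0.183). That cut shortened the replicate lists as well, so some combined peaks lost a partner through it. These tests treat peaks as independent, which peaks lying in groups are not.

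Peaks held by both replicates were wider and more enriched than the rest. Their median enrichment was 5.99-fold (quartiles 4.40 and 8.22) and their median width 487.5 bp. Peaks held by neither had 3.36-fold (2.88 and 4.09) and 271.5 bp. Peaks of replicate 2 alone lay close to the latter in enrichment, at 3.52-fold, and between both in width, at 347 bp. The 12 peaks of replicate 1 alone had 4.44-fold and 314.5 bp. The control level was a median of 45.5 control tags per kb of peak for those held by both and 46.6 for those held by neither. It was higher for replicate 2 alone, at 49.7, and lower for replicate 1 alone, at 37.6. ChIP tags per kb were 270 for peaks held by both and 161 for those held by neither. No test was made, because the same tags decide whether a peak enters a list.

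**Figure D1:**
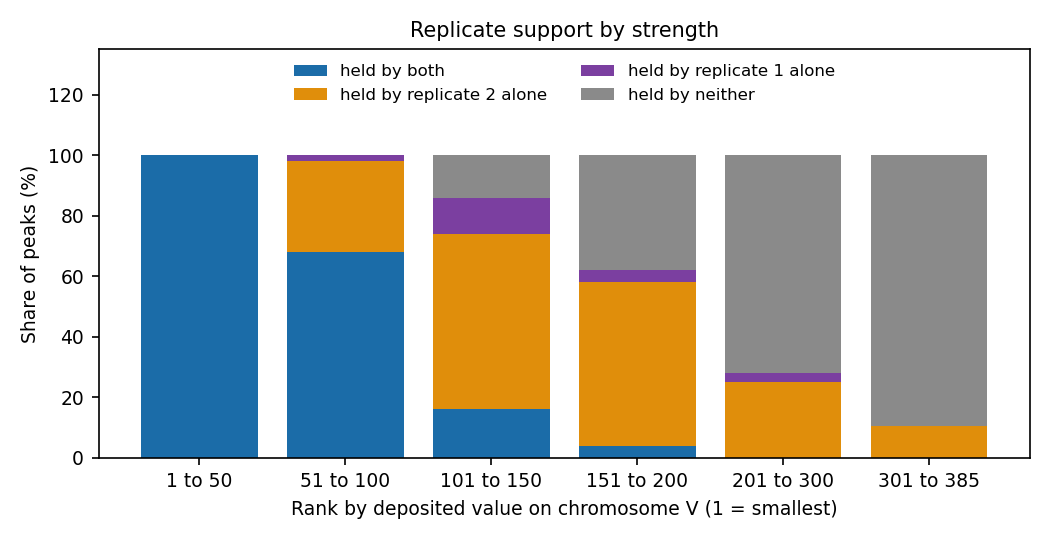
Share of chromosome V combined peaks (vertical axis, percent) held by both replicates, by either alone or by neither, in 6 classes of rank by deposited value (horizontal axis, 1 is the smallest value). All of the first 50 peaks were held by both, 34 of the next 50, and none beyond rank 158.

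Replicate support fell off steeply with rank, as the plot of replicate support by strength shows. Every one of the 50 peaks with the smallest deposited values was held by both replicates. Among ranks 51 to 100, 34 of 50 were, among ranks 101 to 150, 8 of 50, and among ranks 151 to 200, 2 of 50. The first peak without support from both stood at rank 68, the last with it at rank 158, and the first held by neither at rank 104. Support from both replicates was therefore complete before rank 68 and absent after rank 158. ChIP tags of the combined list were a median of 1.03 times the sum over both replicates at the sites with 1 partner in each. The combined list is thus not separate from the replicate lists, and this decline is a description.

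The 10 strongest sites held by both are given with their values in each list, because the further comparisons of position rest on such sites. The first was V 9343108 to 9344687, 1580 bp wide, with 8.25-fold (6.57 to 10.5) in the combined list. Replicate 1 gave it 9.41-fold (6.31 to 14.6), and replicate 2 gave 17.4-fold (11.6 to 27.1). The replicate peaks were 746 and 850 bp wide and start at 9343891 and 9343857. A large left part of the combined peak thus lay outside both. The peak at V 6224181 to 6225437 reached 9.98-fold (7.33 to 13.9), with 10.8-fold (5.95 to 21.3) for replicate 1 against 16.9-fold (10.2 to 30.1) for replicate 2. The peak at V 9789771 to 9790270 reached 16.7-fold (10.9 to 26.9), with 16.3-fold (8.64 to 34.6) and 22.1-fold (11.8 to 46.7). All 3 were well above the median of sites held by both in every list, and the third was the most enriched of the 10.

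The peak at V 7804018 to 7804913 had 10.8-fold in the combined list, 8.14-fold in replicate 1 and 13.6-fold in replicate 2. The peak at V 11313986 to 11314533 had 12.1-fold, 8.93-fold and 16.4-fold in the same order. The peak at V 12814231 to 12814957 had 10.5-fold, 5.94-fold (3.53 to 10.6) and 13.3-fold (7.89 to 24.3). The last of these had the highest ratio of replicate 2 to replicate 1 among the 10, and its 2 intervals overlap.

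Of the remaining 4 strong sites, 2 lay towards the right end. V 20773500 to 20774104 had 9.82-fold, 7.12-fold and 12.9-fold, and its centre lies at 99.7% of the length up to the last listed peak. V 17951138 to 17951876 had 9.4-fold, 7.38-fold and 14.6-fold. This peak stood in a thinly occupied stretch, with its nearest neighbour 93460.5 bp away between centres. V 11548911 to 11549401 had 12.15-fold, 8.09-fold and 14.9-fold. The last, V 10719088 to 10721246, was the widest peak of the chromosome and the least enriched of the 10, with 4.48-fold (3.58 to 5.66). It overlapped 2 peaks in each replicate list, and the one with the smaller deposited value had 4.94-fold (replicate 1) and 6.97-fold (replicate 2). Of the 10 sites, 7 lay in the middle part of the chromosome, and replicate 2 had the higher enrichment at all 10.

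Order by deposited value favours wide peaks with many tags, and the 2 highest ratios lay outside the 10 sites above. The most enriched site, V 14055005 to 14055384, was 380 bp wide and stood at rank 23. It had 21-fold (9.94 to 53.1) in the combined list, 16.75-fold (6.25 to 63.3) for replicate 1 and 33.7-fold (11.2 to 166) for replicate 2. Next came V 349059 to 349443, near the left end, with 17.1-fold (9.34 to 34.8), 13.3-fold (5.86 to 37.4) and 21.8-fold (9.77 to 60.6). Both rest on few control tags, 7 and 11 in the combined list, and their intervals are wide. These 2 sites were chosen after their values were seen.

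The strongest sites without support from both replicates rested on fewer tags, with 58 to 146 ChIP tags in the combined list against 243 to 693 at the 10 sites above. The strongest of replicate 2 alone was V 10807929 to 10808255, with 8-fold (4.13 to 17.3) in the combined list and 6.4-fold (2.48 to 21.04) in replicate 2. It was followed by V 7848025 to 7848653 with 4.62-fold and by V 4194820 to 4195176 with 7.8-fold (4.02 to 16.9). Their values in replicate 2 were 7.17-fold and 10.6-fold (4.27 to 34.0). The strongest of replicate 1 alone were V 18967624 to 18967948 with 7.22-fold, V 2694384 to 2694736 with 7.25-fold and V 12967864 to 12968195 with 5.82-fold. Their replicate 1 peaks held 31, 27 and 38 ChIP tags. The strongest held by neither, V 4450576 to 4451258, V 3756892 to 3757740 and V 10724538 to 10725732, had 3.95-fold, 2.78-fold and 2.52-fold. These last 3 were wide, at 683, 849 and 1195 bp, unlike the median peak of their class. Because depth is unknown, absence from a list does not show absence of binding.

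**Figure D2:**
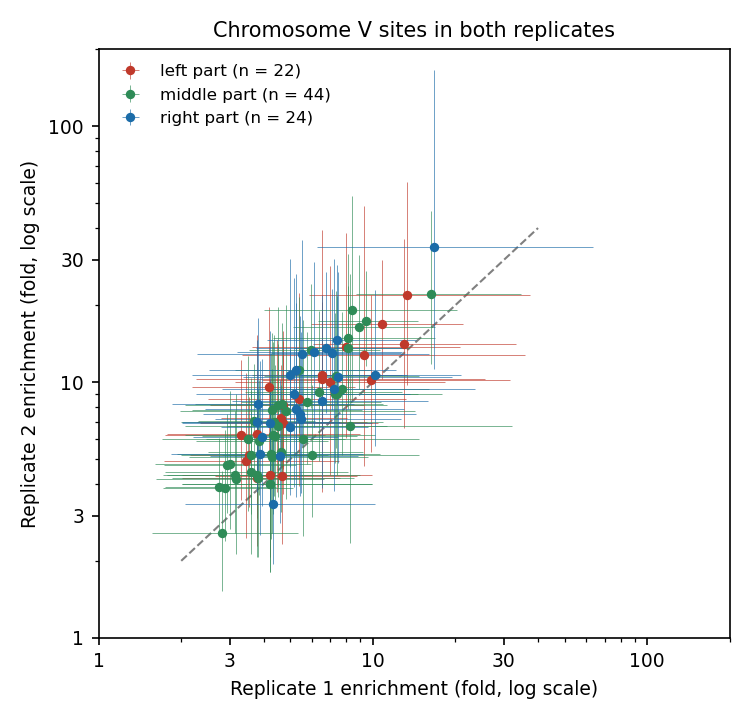
Enrichment (fold, log scales) in replicate 1 (horizontal axis) and replicate 2 (vertical axis) at the 90 chromosome V sites with 1 partner in each replicate, coloured by part of the chromosome, with exact 95% intervals and a dashed line of equal values. Replicate 2 lies above the line at 83 of the 90 sites.

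At the shared sites the order of strength was alike in both replicates, but the level was not. These sites were chosen because both replicates overlapped the same combined peak. Close replicate centres are therefore in part set by that choice. Of the 94 sites, 90 had a single partner in each replicate, and the other 4 overlapped more than 1 peak in at least 1 list. At the 90, the replicate centres lay a median of 25.2 bp apart (quartiles 12.5 and 62.2), 80 lay within 100 bp, and the largest distance was 231.5 bp. The median ratio of ChIP to control tags was 4.77 for replicate 1, against 7.61 for replicate 2. Replicate 2 was higher at 83 of the 90 sites, with a median ratio of 1.47 (quartiles 1.26 and 1.75), and its peaks were wider at 81. The control tags, which may be scaled, had medians of 10 and 10.5, and the ChIP tags of 49 and 77.5. Close control values therefore need not mean equal numbers of control reads. Whether both replicates were compared with the same control reads is not given in the sources used here.

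The lead of replicate 2 was present in every part of the chromosome, as the plot of both replicates shows. It was higher at 21 of 22 sites in the left part, 39 of 44 in the middle part and 23 of 24 in the right part, with median ratios of 1.56, 1.44 and 1.59. Across the 90 sites, enrichment in the replicates had a Spearman's rho of 0.84, given as a description. The sites share their 2 libraries and possibly the control.

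Nearly every replicate peak on chromosome V had a counterpart in the combined list. All 109 replicate 1 peaks overlapped a combined peak, as did 201 of the 207 replicate 2 peaks, or 97.1%. On the other chromosomes the shares were 99.6% and 96.6%, close to those of chromosome V. The 6 missing replicate 2 peaks were weak and absent from replicate 1. The strongest 3 lay at V 10723289 to 10723657, V 7093834 to 7094134 and V 3692791 to 3693244, with 3.62-fold (1.92 to 7.28), 4.11-fold (1.95 to 9.69) and 4.25-fold (1.93 to 10.6). The first lay 668.5 bp, between centres, from a listed combined peak. None of the 6 was in the right part of the chromosome.

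A replicate 2 peak was overlapped by 97 of the 109 peaks of replicate 1, or 89.0% (81.6 to 94.2), where the share over all chromosomes was 93.7%. The 12 without a partner had a median width of 249.5 bp, against 330 bp for those with one. In the other direction, 94 of the 207 peaks of replicate 2 met a peak of replicate 1, or 45.4% (38.5 to 52.5), where the share over all chromosomes was 45%. By part, that share was 37.7% (25.6 to 51.04) on the left, 51.6% (40.9 to 62.3) in the middle and 43.6% (30.3 to 57.7) on the right. These intervals overlap widely, so no order of the parts was resolved.

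**Figure D3:**
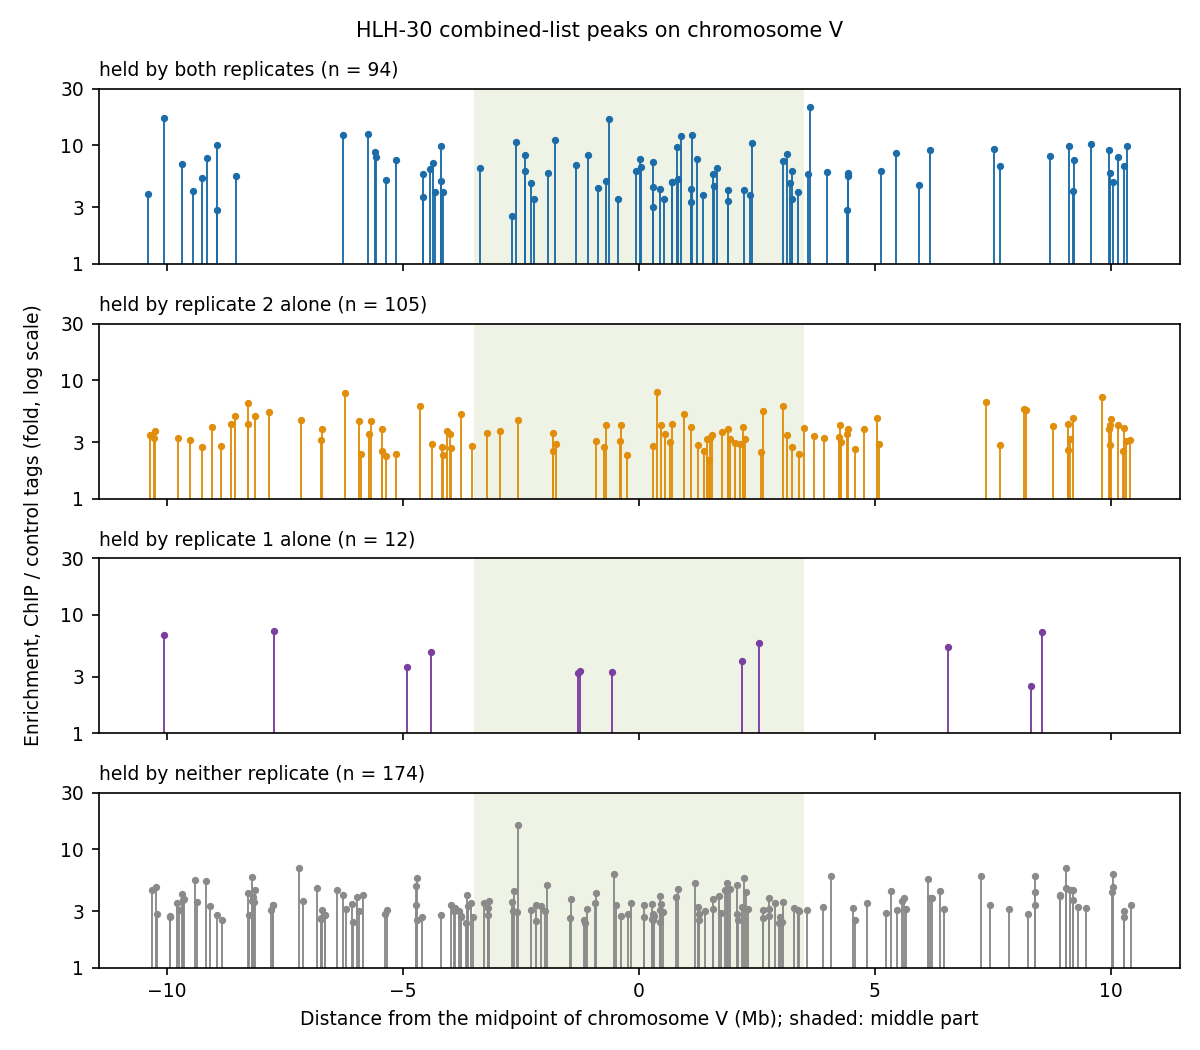
Every chromosome V combined peak at its distance from the midpoint of the chromosome (horizontal axis, Mb), with enrichment as its height (vertical axis, fold, log scale), in 4 rows by replicate support. The 94 sites held by both include the highest ratios and leave a wide empty stretch on the left and sparse ones on the right. The single tall line in the lowest row is the 3 bp entry.

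The centre of chromosome V was more densely occupied than its arms. With the chromosome divided into 3 equal parts, limits falling at positions 6947083 and 13894167, the left part held 123 peaks, the middle 165 and the right 97. This is 17.7, 23.8 and 13.96 peaks per Mb. The middle part thus held 42.9% of the peaks (37.9 to 48.0) where 38.1% of the peaks of all chromosomes lay in the middle of their own. The surplus against the other chromosomes, 5.69 percentage points over their 37.2%, did not pass the test after adjustment (Fisher's exact test, two-sided, p = 0.0380, adjusted p = 0.152). It was 3.58 points with the X chromosome left out, 7.18 points in the replicate 2 list and 12.1 points in the replicate 1 list. Adjusted p ranged from 0.0949 to 0.255 over the alternatives (Fisher's exact test). Chromosome II was the nearest, at 41.5%, and the X chromosome the farthest, at 30.8%.

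Both replicates showed the central surplus. The middle part held 54 of the 109 replicate 1 peaks, or 49.5% (39.8 to 59.3), and 91 of the 207 replicate 2 peaks, or 44.0% (37.1 to 51.01). Of the outer peaks of the combined list, 55.9% lay on the left, which did not pass the test (exact binomial test against 50%, two-sided, p = 0.0917, adjusted p = 0.160). In replicate 1 the outer parts held 28 and 27 peaks, and in replicate 2 they held 61 and 55. Peaks held by both were also balanced, with 23 on the left and 24 on the right. Of those that neither replicate held, 61 lay on the left and 39 on the right.

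**Figure D4:**
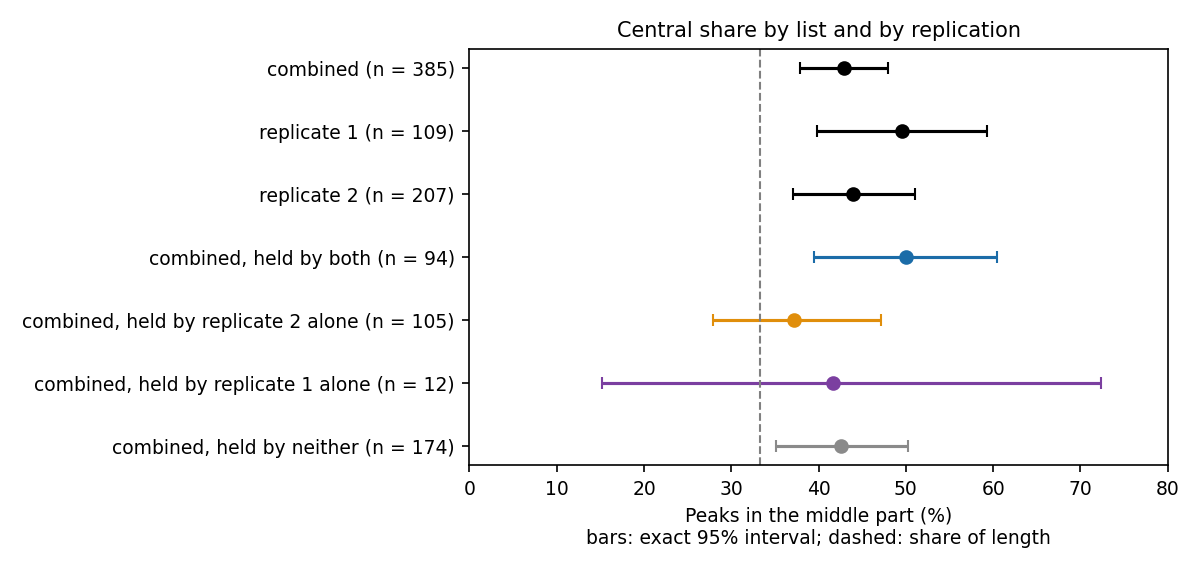
Share of chromosome V peaks in the middle part (horizontal axis, percent) in each list and by replicate support, with exact 95% intervals and a dashed line at the share of length. The point for sites held by both is the rightmost, at 50%, and its interval overlaps all others.

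Replicated sites were the most central, by a margin that was not resolved. Of the 94 sites held by both, 23 lay on the left, 47 in the middle and 24 on the right, so that the middle held 50% (39.5 to 60.5). It held 37.1% (27.9 to 47.1) of the peaks of replicate 2 alone and 42.5% (35.1 to 50.2) of those held by neither. The median distance from the midpoint was 3.48 Mb for sites held by both, 4.38 Mb for those of replicate 2 alone and 4.03 Mb for those held by neither. Put the other way round, 28.5% of middle peaks and 21.4% of outer peaks were held by both, a difference of 7.12 points (Fisher's exact test, two-sided, p = 0.120, adjusted p = 0.160). Among the better-scoring 50% of each list the difference was 0.44 points (Fisher's exact adjusted p = 1, range over the alternatives 0.108 to 1). There too, the replicate lists were cut along with the combined list, and some combined peaks lost a partner. The plot of the central share shows the overlap of all these intervals.

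Replicated sites in the centre were not the most enriched. Their median was 5.24-fold (quartiles 4.21 and 7.55) in the middle part, 6.30-fold (4.58 and 8.41) on the left and 6.69-fold (5.73 and 9.10) on the right. The control level is the denominator of enrichment. At these sites it had a median of 47.8 control tags per kb of peak in the middle, 44.0 on the left and 39.9 on the right. Over all combined peaks the medians were 51.6 in the middle, 45.1 on the left and 42.5 on the right. The same order held in replicate 1, with 30.4, 27.6 and 25.6, and in replicate 2, with 25.8, 23.1 and 21.4. Median enrichment over all peaks ran in the opposite order in the combined list, with 3.55-fold, 3.68-fold and 4.14-fold. In replicate 1 it did too, with 4.5-fold, 5.04-fold and 5.43-fold. It did not in replicate 2, with 5.14-fold, 4.9-fold and 5.5-fold. For the control level, the ratio of middle to outer peaks was 1.17 in each of the 3 lists. Chromosomes I, II and III had combined-list ratios of 1.17, 1.18 and 1.17, chromosome IV of 1.23 and the X chromosome of 1.07. ChIP tags per kb, the numerator, had medians at the replicated sites of 258 in the middle, 258 on the left and 286 on the right. Over all combined peaks they were 183, 170 and 175 in the same order. The parts of the control and ChIP levels in the enrichment order were not tested, and these values cover listed peaks only.

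**Figure D5:**
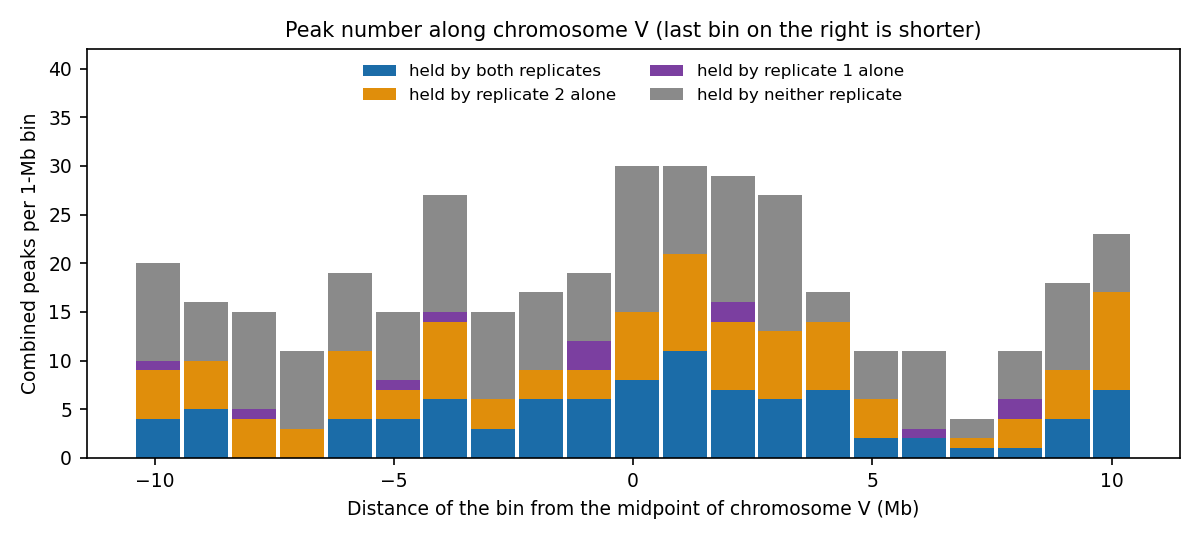
Number of combined peaks in each 1-Mb bin of chromosome V (vertical axis), stacked by replicate support, at the distance of the bin from the midpoint (horizontal axis, Mb). Bins range from 4 to 30 peaks, with the highest just right of the midpoint, the lowest towards the right end, and no bin empty.

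Within the centre, occupancy was not even. The 20 full 1-Mb bins held between 4 and 30 peaks, with a median of 17, and none was empty. The 3 densest, from 10 to 13 Mb, held 30, 30 and 29. The bin from 11 to 12 Mb also led in both replicates, with 11 and 21 peaks, and 11 of its 30 combined peaks were held by both. The stretch from 10 to 14 Mb held 116 combined peaks, or 30.1%, on 19.2% of the length. It held 33.0% of replicate 1 peaks, 32.4% of replicate 2 peaks and 34.0% of the sites held by both. The dense stretch lay to the right of the middle of the centre, since the bins from 7 to 10 Mb held 15, 17 and 19 peaks. Bins were read off after their counts were known.

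The arms were uneven as well, and the outermost ends were not the emptiest. On the left, the first bin held 20 peaks, while the bin from 3 to 4 Mb held 11. On the right, the bin from 17 to 18 Mb was the emptiest of all, with 4 peaks, and the last 0.841 Mb held 23. The last 500 kb before the right end held 21 combined peaks, 6 of them held by both replicates, and the first 500 kb on the left held 11, of which 2 were. The right end was dense in each replicate too, with 6 and 15 peaks in those 500 kb against 3 and 5 on the left. This right end is the end of the last listed peak, so its 500 kb holds a peak by construction and may stop short of the chromosome's end. The plot of peak number along the chromosome shows this rise at the right end.

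The longest stretch without a combined peak ran from V 16965953 to 17670267, or 704 kb. No replicate peak had its centre there. In the replicate lists, which hold fewer peaks, the longest stretch was 1448 kb (replicate 1) and 1175 kb (replicate 2). The next, V 2694737 to 3205563, spanned 511 kb and was also without a replicate peak. Its left neighbour, with 7.25-fold, was held by replicate 1 alone, and its right neighbour is the peak of 99 bp. The 3 that followed were V 18266986 to 18589558, V 2282054 to 2589646 and V 8662460 to 8964077, of 323, 308 and 302 kb. None of them held the centre of a replicate peak. Of these 5 stretches, all but the last lay in the outer parts.

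Chromosome V had 14 stretches over 200 kb, which made up 21.2% of its length, in the combined list. The replicate 1 list had 37 (75.8%) and the replicate 2 list 30 (52.1%). In the combined list only chromosome IV, with 143 peaks, had more, 26 stretches on 52.7% of its length. Chromosomes I and II, with 345 and 424 peaks, had 5 each (8.60% and 9.23%). The X chromosome, with 461 peaks, had 2 (2.77%), and chromosome III, with 478, had 1 (1.96%). Such counts depend on the number of peaks and on chromosome length. They therefore cannot decide whether any trait of spacing is particular to chromosome V, which was not tested. Median spacing was widest on the right. The median distance from the end of a peak to the start of the next was 30.4 kb over the chromosome, 28.4 kb on the left, 25.3 kb in the middle and 40.9 kb on the right. The quartiles were wide everywhere, at 7.77 and 53.8 kb even in the middle. By distance to the nearest centre, the left and middle changed places. Those medians were 8555.5 bp on the left, 10927.5 bp in the middle and 16742.5 bp on the right.

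Sites held by both replicates left longer empty stretches, as a smaller part of the same peaks does by construction. The longest ran from V 1872129 to 4143029, or 2.27 Mb. It contained 27 combined peaks, of which neither replicate held 19, replicate 2 alone 7 and replicate 1 alone 1, with a median enrichment of 3.88-fold. This stretch is therefore not free of peaks but free of replicated ones. From 2 to 4 Mb, replicate 1 had 1 peak, replicate 2 had 9 and the combined list had 26. It was bounded on the right by V 4143030 to 4143488, a site of 12.4-fold (7.43 to 22.1) in the combined list, 13-fold in replicate 1 and 14.1-fold in replicate 2. The next longest stretches lay on the right, V 16598801 to 17951137 with 1.35 Mb and V 18079467 to 19125712 with 1.05 Mb. They contained 7 and 9 combined peaks.

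Peaks of chromosome V also occurred in small groups. For 60 of the 385, another peak centre lay no more than 2000 bp away, or 15.6% (12.1 to 19.6), where the share over all chromosomes was 19.1%. On the other chromosomes it ran from 12.6% (7.63 to 19.2) on chromosome IV to 25.5% (21.7 to 29.7) on chromosome III. The median distance to the nearest centre was 10927.5 bp, and the closest centres were 638.5 bp apart. The 60 peaks formed 26 groups, 19 of 2 peaks, 6 of 3 and 1 of 4. Groups were found in each part, with 9 on the left, 10 in the middle and 7 on the right. The share of peaks in groups was 14.6% (8.91 to 22.1) on the left, 14.5% (9.55 to 20.9) in the middle and 18.6% (11.4 to 27.7) on the right. With intervals that overlap so widely, the parts could not be put in order.

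Of the replicated sites, 22 of 94 lay in groups, or 23.4% (15.3 to 33.3). The share was 16.2% (9.72 to 24.7) for replicate 2 alone and 11.5% (7.16 to 17.2) for neither, and these intervals overlap that of the replicated sites. Neighbours count each other, so no test was made. Of the 34 pairs of neighbours, 5 joined sites both of which were replicated, 15 had 1 replicated site and 14 had none. Distance to the nearest replicated site was also taken by class. Of the 174 peaks held by neither, 26, or 14.9%, had a replicated site within 10 kb. Their median distance to the nearest was 83.8 kb. For the replicated sites themselves, these values were 21.3% and 58.8 kb. Peaks of replicate 2 alone lay as near, with 24.8% and 54.8 kb, and the 12 of replicate 1 alone had 8.33% and 116 kb. What the spacing of the replicated sites alone would give was not tested, so none of these distances is called near or far in itself.

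The largest group lay at V 14847223 to 14850859, where 4 peaks spanned 3.64 kb. The first 3 were held by both replicates and were nearly equal, with 5.85-fold (3.62 to 9.93), 5.58-fold (3.40 to 9.63) and 5.62-fold (3.62 to 9.08). The last was held by replicate 2 alone, with 3.85-fold. To the left of it, a pair at V 14831614 to 14832545 and 14833009 to 14833556 had 2.83-fold and 3.54-fold, and the first of them was held by both. Their values were close within the pair, as those of the first 3 were within the group.

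A run of broad peaks near the midpoint had a different makeup. The 2000 bp rule joins only its first 2 peaks, so the whole run is not a group in the sense used above. From V 10715182 to 10729889 there were 6 combined peaks, of 1023, 1244, 2159, 546, 1195 and 510 bp, against a median of 333 bp. The first 3 were held by both replicates, with 7.31-fold (5.22 to 10.5), 3.04-fold (2.33 to 4.001) and 4.48-fold. The fourth was held by replicate 2 alone, with 2.76-fold, and the fifth and sixth by neither, with 2.52-fold and 2.76-fold. Enrichment was therefore highest at the left edge of the run, and support was lost towards the right. One of the 6 replicate 2 peaks missing from the combined list, at V 10723289, falls between the fourth and the fifth. This run was chosen after its values were seen.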

How the data were processed

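The data are 3 peak lists in GFF3 format, 1 for each of the 2 ChIP samples and 1 combined list. Peaks were called with PeakSeq on build WS180, per the file headers and columns. Not given in the sources used here are the aligner, the settings, the filters and how the combined list was made. Worms were crosslinked with 2% formaldehyde and 10% of the lysate served as input, per the labels' protocols. The authors deposited 1 q-value per peak. For each of the 4223 there was exactly 1 pair of whole numbers whose lower tail under a binomial with equal chances matched it to 1e-09 of its size, searched below totals of 1500 and, where none was found, up to 40000. After a rise by 1e-05 of their size, 0 matched a pair below 1500. The values were therefore read as uncorrected p-values of ChIP tags against control tags, names that follow the published PeakSeq method and that no file gives.

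Peaks were placed by their centres. Intervals are exact Clopper-Pearson intervals at 95%; for enrichment, that of the ChIP share was turned into a ratio. They cover counting error only. Fisher's exact and exact binomial tests (SciPy 1.17.1) were adjusted by Benjamini-Hochberg over 4. Scripts were tested on simulated data. Peaks named are the 10 smallest values held by both replicates, the 3 smallest in each other class, the 3 strongest replicate peaks missing from the combined list, the 5 longest empty stretches, the 3 densest 1-Mb bins and the largest group. Members, rules and tests were chosen with earlier results of these data known. No input file and no WS180 sequence was used here.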

Additional observations from a re-analysis of the deposited data

How the results depend on the processing

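Of 47 alternative values, 35 were unmoved, or kept their direction and their side of 0.05, 11 moved and 1 reversed. No test passed 0.05 after adjustment under any alternative run. The reversed value was the difference in the share held by both replicates between chromosome V and the others, which went from -2.92 to 5.24 percentage points among the better-scoring 50% of each list. The cause was not tested. The share held by both fell to 20% with an overlap of 50% of both peaks. It was 32.1% (52/162) when each list was cut to its better-scoring 50%. That cut removed replicate peaks too, so combined peaks whose partner was cut no longer counted as held by both. The 32.1% is thus not the support of the stronger peaks in the full lists, where the last peak held by both stood at rank 158. The middle part held 59.5% of the peaks when it was 50% of the length and 57.7% between 6 and 16 Mb (48.0% of the length). With each replicate left out in turn its share ran from 44.0% to 49.5%. Peaks with a neighbour made up 4.16% within 1000 bp, 31.4% within 5000 bp and 11.7% among the better-scoring 50%, and 14.01% to 14.7% in the single replicate lists. The longest empty stretch was 1352 kb for the better-scoring 50% and 1175 to 1448 kb in the replicate lists, which hold fewer peaks by construction. With a replicate left out, the middle-part difference from other chromosomes ran from 7.18 to 12.1 points and the left share of outer peaks from 50.9% to 52.6%. Counting grouped peaks once and leaving out peaks narrower than 100 bp were chosen after seeing the data and moved nothing. No paired analysis was possible because only the ChIP group has lists here, so replicate numbers link no 2 groups. Shares held by both replicates and enrichment by class have no value with a replicate left out.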
